A study of Mus musculus with 2 samples.

Results

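The D-type cyclins and their kinases are the genes Ccnd1, Ccnd2 and Ccnd3, which encode cyclins D1, D2 and D3, and Cdk4 and Cdk6, which encode the kinases these cyclins activate. These 5 of 20780 autosomal protein-coding genes were chosen by name, with the promoter coverage ratios of Ccnd1 and Ccnd2 in these libraries already known, so every value from the comparison of the libraries is given as a description. Their open regions were the intervals whose summit lay within 100 kb of a member's start site, with no other protein-coding start site nearer, together with intervals reaching within 1 kb of a member's start site. The second condition added no interval. The vehicle list held 79 such peaks of 127423, and the TAMo list held 111 of 179414. Joined where they overlapped, they made 112 regions of 190617.

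ATAC-seq, in which a transposase cuts open chromatin, was performed on mouse CD8+ OT-I T cells (genotype label WT), which carry a transgenic receptor for an ovalbumin peptide. Both cultures received OVA257-264 peptide for 48 h, the control with vehicle and the other with TAMos, CD11b+ Ly6G- Ly6C-high cells taken from spleens of mice carrying tumours of the LLC (Lewis lung carcinoma) line. About 50000 sorted CD8+ T cells went into each library, and each condition had 1 library. The number, age and sex of the mice are not given in the labels used here. With 1 library per condition there was no replicate check and no test was run, and each interval below covers counting error only.

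In G1 phase, a D-type cyclin binds CDK4 or CDK6, and the complex phosphorylates the retinoblastoma protein and its relatives, which releases E2F factors and allows entry into S phase. The INK4 proteins inhibit these kinases. Lymphocytes are known to use mainly cyclins D2 and D3, which are induced when T cells are activated, whereas cyclin D1 is the usual form in many other tissues and is little expressed in lymphocytes.

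Promoter sequences were matched in RefSeq for 3 of the 5 members, Ccnd3, Cdk4 and Cdk6. They are shown because these promoters were open in both libraries and differ in the motifs they hold. Each window is the 250 bases before a start site on the plus strand of GRCm38.p6, the assembly also called mm10, written 5′ to 3′. The windows are chr10:127063285-127063534 for Cdk4, chr5:3343643-3343892 for Cdk6, chr17:47504801-47505050 for the first Ccnd3 start site and chr17:47593217-47593466 for an internal Ccnd3 start site. In the windows of the kinases, capitals mark the E-box CACGTG, the motif of Myc and related factors. In the windows of Ccnd3, capitals mark GC boxes of the Sp family (GGGCGG, or CCGCCC on the other strand) and an Ets motif (CCGGAAG).
Cdk4: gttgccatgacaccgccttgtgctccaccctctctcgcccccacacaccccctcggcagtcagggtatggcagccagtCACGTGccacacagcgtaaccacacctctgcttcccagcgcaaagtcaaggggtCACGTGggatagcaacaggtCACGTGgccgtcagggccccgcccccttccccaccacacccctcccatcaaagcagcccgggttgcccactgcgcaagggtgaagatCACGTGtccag
Cdk6: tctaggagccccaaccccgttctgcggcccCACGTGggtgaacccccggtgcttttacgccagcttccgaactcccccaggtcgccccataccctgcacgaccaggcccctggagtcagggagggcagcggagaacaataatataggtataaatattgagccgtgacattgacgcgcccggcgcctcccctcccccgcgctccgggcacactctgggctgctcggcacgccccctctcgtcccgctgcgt
Ccnd3 first start site: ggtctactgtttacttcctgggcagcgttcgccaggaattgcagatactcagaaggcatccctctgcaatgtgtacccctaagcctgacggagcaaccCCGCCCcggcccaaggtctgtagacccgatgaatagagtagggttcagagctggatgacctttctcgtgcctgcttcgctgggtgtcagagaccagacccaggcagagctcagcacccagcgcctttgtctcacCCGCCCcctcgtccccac
Ccnd3 internal start site: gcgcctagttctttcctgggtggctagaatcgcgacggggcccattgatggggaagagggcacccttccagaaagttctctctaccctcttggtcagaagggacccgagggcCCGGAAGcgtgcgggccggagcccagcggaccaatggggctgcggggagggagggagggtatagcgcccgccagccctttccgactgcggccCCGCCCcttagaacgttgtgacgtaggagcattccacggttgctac

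The Cdk4 window held 4 E-boxes, at 6 to 11, 93 to 98, 113 to 118 and 167 to 172 bases before the start site. An E-box was present in 6.02% of 32817 promoter windows of this length, and 7 windows (0.0213%) held 4 or more. The Cdk6 window held 1, at 215 to 220 bases before its start site, and neither Ccnd3 window held any. The GC box, present in 32.7% of windows, was found in the Cdk4 window once, in the first Ccnd3 window at 2 places and in the internal Ccnd3 window once. The Cdk4 window also held 1 Runx motif (TGTGGTT, 4.39% of windows), on the other strand. The Ets motif, present in 6.90% of windows, was found once, in the internal Ccnd3 window. The motifs of E2F (TTCCCGC, 3.82% of windows), AP-1 (TGANTCA, 6.75%), CRE (TGACGTCA, 1.55%) and STAT (TTCNNNGAA, 7.01%) did not match any of the 4 windows on either strand. These matches are letters in a window and were not tested as binding sites.

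Read coverage at each summit, the base with the highest signal in a peak, was recovered from the deposited fold enrichment and −log10 p of the peak. Dividing it by the library's most frequent background, 4.71 reads in vehicle and 5.80 reads in TAMo (a depth ratio of 1.23), gave a scaled level and a log2 ratio of TAMo over vehicle. Over 103848 regions of the genome open in both libraries, the median log2 ratio was 0.28, with quartiles of −0.12 and 0.89. At promoter regions, within 1 kb of a start site, the median was 0.05, and at the other, distal regions it was 0.38. Peaks were at promoters of all 8 T cell markers in both libraries. Myeloid markers had promoter peaks at 4 of 10 genes in vehicle and 8 of 10 in TAMo, and granulocyte markers at 0 of 5 in both. Over all genes, 13759 of 20780 had a promoter peak in vehicle and 14285 in TAMo.

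By promoter ratio, ratio of peak numbers and median over shared regions, the locus that differed most between the libraries was Ccnd1. The promoter ratio was known when the genes were chosen. The Ccnd1 promoter was weakly open in vehicle and more open in the TAMo library. The TAMo list held 20 Ccnd1 peaks against 10, where the whole lists held 179414 against 127423. The largest log2 ratios of single regions were at Ccnd2 (2.69) and Ccnd3 (2.05). At the start sites of Ccnd2, Cdk4 and Cdk6 both libraries had peaks that differed by less than 1.5-fold in coverage, and the same held at the first and the stronger internal start site of Ccnd3. Around all the genes but Cdk4, single distal regions still differed by more than 2-fold.

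**Figure D1:**
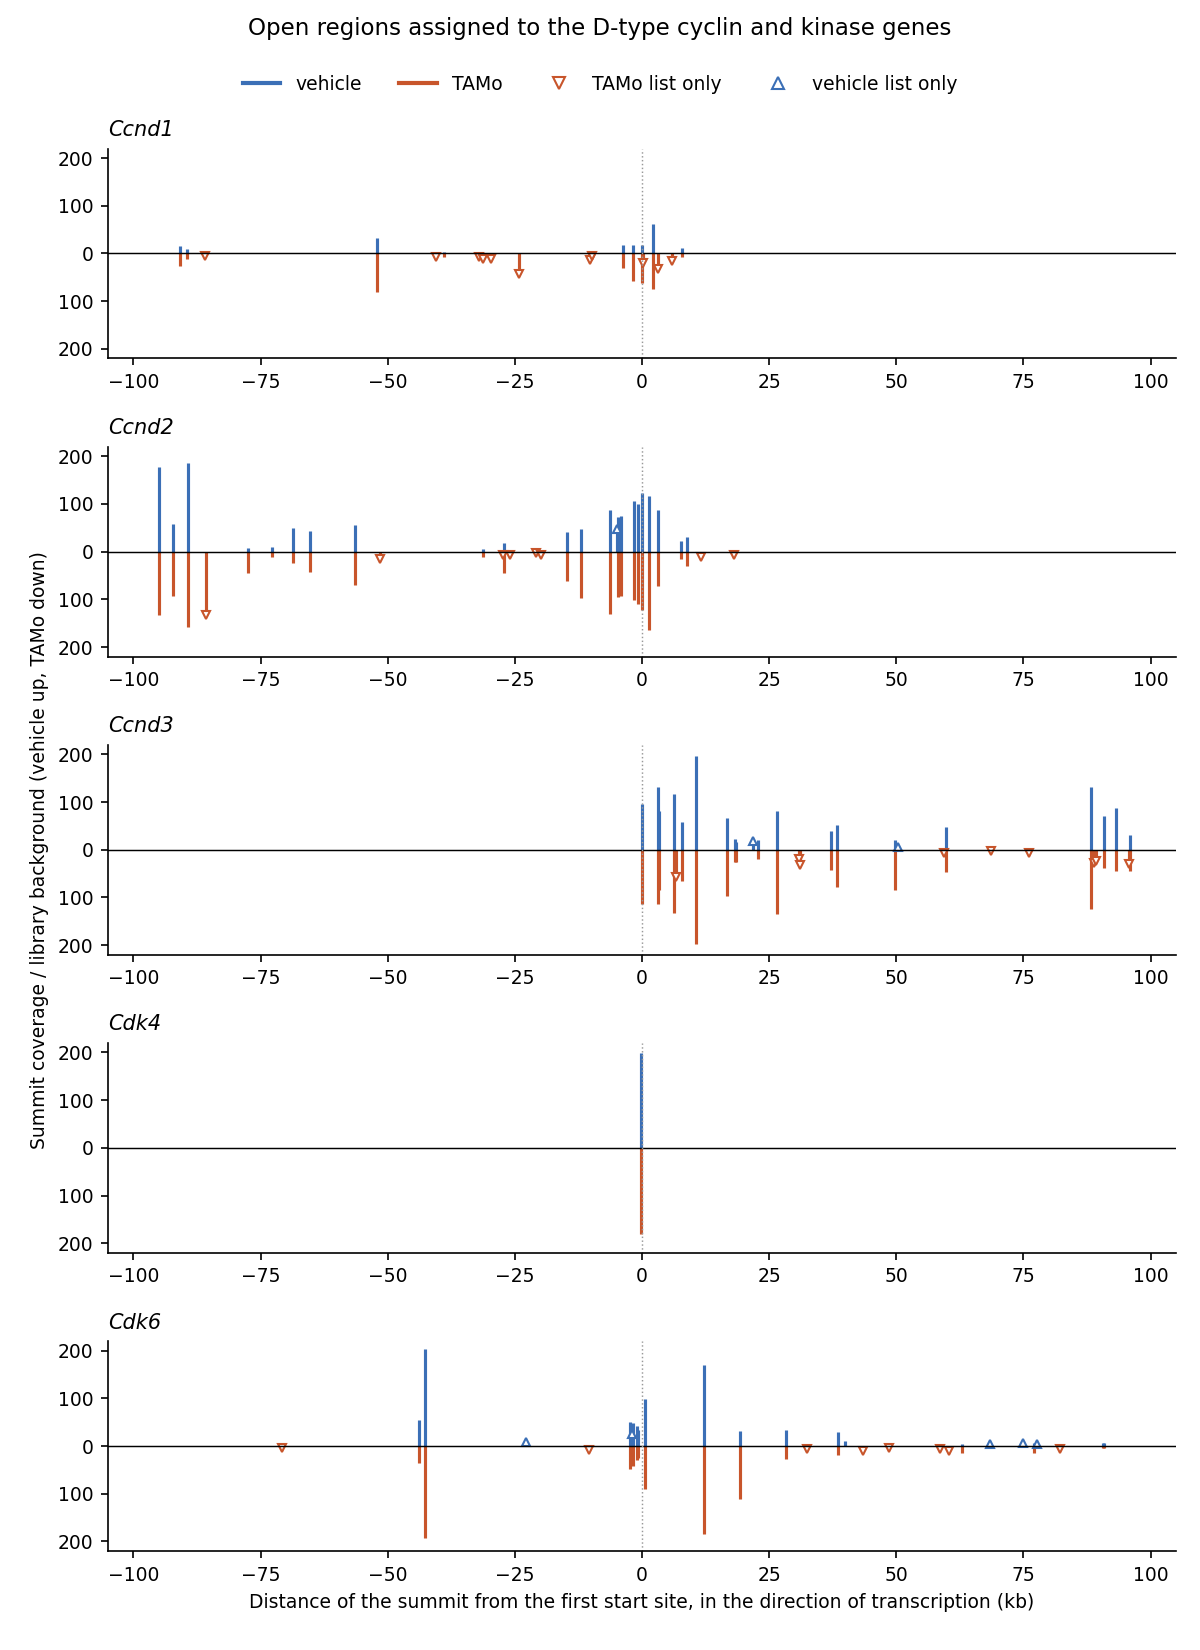
Summit coverage divided by library background (vertical axis, vehicle upward and TAMo downward) against the distance of the summit from the first start site in kb (horizontal axis) for every region of the 5 genes; triangles mark regions found in 1 list only. Ccnd1 had low stems in vehicle and TAMo-only regions on both sides of its start site, Cdk4 had a single region, and 1 Cdk6 region about 40 kb downstream is drawn with its vehicle stem only because its TAMo coverage was not recovered.

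Ccnd1 (ENSMUSG00000070348) lies on the minus strand of chromosome 7 at 144929931 to 144939925 in mm10, with 1 annotated start site. The region over the start site (144939688 to 144939947), with its summit in the 5′ UTR, had 80 reads in vehicle and 359 in TAMo. The levels were 17.0 and 61.9 times background, a log2 ratio of 1.86 (95% exact binomial interval 1.51 to 2.23). Among the promoters of 13578 genes with a ratio, the vehicle level stood at percentile 12.4 and the TAMo level at percentile 32.8. Thus the promoter was among the weaker ones that were called in vehicle, and it was still below the median promoter in TAMo. Promoters at least 2-fold higher in TAMo made up 4.22% of all those with a ratio, and promoters at least 2-fold lower made up 0.817%. Ccnd1 was the 1 member of 5 in the first class, and no member was in the second. With a promoter window of 2.5 kb in place of 1 kb, an intronic peak became the strongest of Ccnd1, and its ratio of 0.30 was no longer past 2-fold.

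The region 1789 bp upstream of Ccnd1 (144941295 to 144941781) differed in a similar proportion, with 82 and 337 reads (log2 ratio 1.74, 1.38 to 2.10). Farther upstream, between genes, the region at 52061 bp (144991459 to 144992239) had 152 and 471 reads (1.33, 1.06 to 1.60). These were the 3 regions of Ccnd1 that passed 2-fold. The strongest vehicle region of the locus differed less. It lies in an intron 2184 bp after the start site (144937510 to 144938068) and had 287 and 437 reads (0.30, 0.09 to 0.52). The region 89482 bp upstream had 42 and 62 reads, with an interval that spanned 0 (0.26, −0.33 to 0.86). The opposite direction was seen at the region in the 3′ UTR (144931865 to 144932097), with 58 and 45 reads (−0.67, −1.26 to −0.08). In all, 8 of the 9 shared regions of Ccnd1 had a ratio above 0, where 67.5% of all shared regions did, and their median was 0.78.

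All 11 one-library regions of Ccnd1 were in the TAMo list, with 25 to 254 reads and a median of 70. Over the genome, too, most one-library regions were in the TAMo list. There 70854 TAMo regions (40.6%) and 15896 vehicle regions (13.3%) had no peak in the other list, and these shares are the background for the one-library counts of every member. The strongest one-library region of Ccnd1 lay 24236 bp upstream between genes (144963952 to 144964597), with 254 reads, a level of 43.8 and rank 24915 of the TAMo list by −log10 q. The nearest vehicle peak was 14139 bp away. A further 3 TAMo-only regions lay inside the gene, 275, 3174 and 5845 bp after the start site, with 121, 192 and 86 reads. Their nearest vehicle peaks were 49, 600 and 1826 bp away, so the first is not separate from a site called in vehicle. A missing call is not a closed site, since vehicle coverage was not available outside the vehicle peaks. The intervals of the locus covered 3.20 kb in vehicle and 7.58 kb in TAMo. A TAMo peak number at least 2-fold that of vehicle was found for 4.07% of the 3684 genes with 10 or more vehicle peaks, among which the median ratio was 1.25. With the TAMo list cut to as many peaks as the vehicle list, the peak numbers of Ccnd1 were 10 and 16.

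The surroundings of the Ccnd1 peaks differed as well. The peak caller's local background, its estimate of the coverage expected around a peak, had a median of 8.84 reads over the shared Ccnd1 regions in vehicle and 21.3 in TAMo, and at the start site it was 23.7 and 52.1 reads. After scaling for depth, the median log2 ratio of the local background was 0.82 for Ccnd1. It was 0.12 for Ccnd2, 0.11 for Ccnd3, −0.28 for Cdk4 and −0.07 for Cdk6, and over all shared regions it was 0.00 with quartiles of −0.14 and 0.36. The lowest local background among the member regions equals, in each library, the most frequent background used for scaling. A region at that value in both libraries gets a ratio of 0 from the scaling itself, so the genome median of 0.00 may be set in part by such regions. Over the 67 member regions with a ratio, the summit ratio and the local background ratio had a Pearson correlation of 0.69. Both values of a point come from the same peak and the same libraries, and nearby regions share much of their background, so the value is a description.

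**Figure D2:**
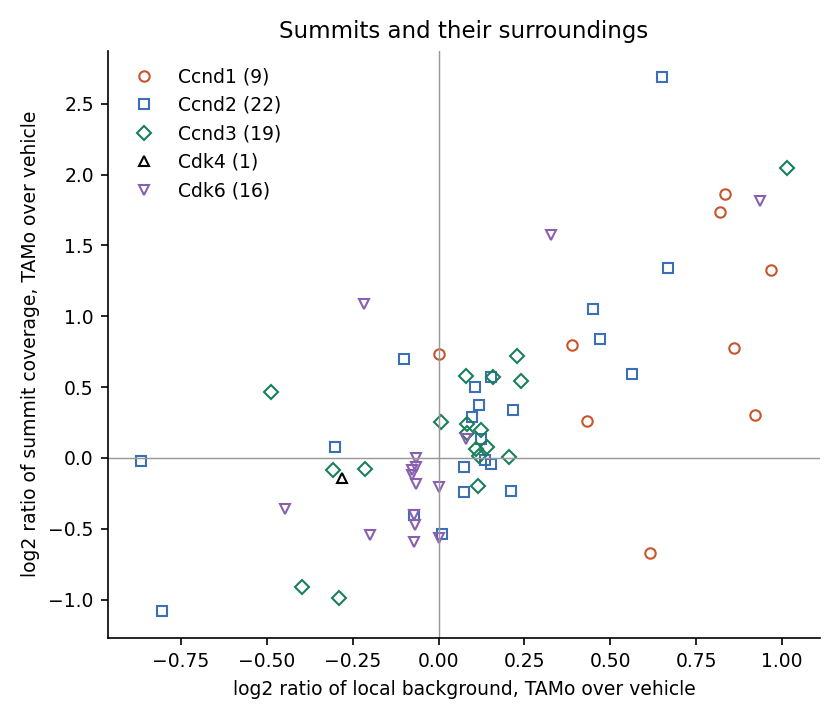
Log2 ratio (TAMo over vehicle) of summit coverage (vertical axis) against that of the peak caller's local background (horizontal axis), 1 point per shared region, with the number of regions of each gene in brackets. The 9 Ccnd1 regions lie at or to the right of 0 on the horizontal axis, with a median of 0.82, while most regions of the other genes lie near 0.

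The promoter peaks of myeloid marker genes also differed in the TAMo library. The scaled level summed over the called peaks of the 10 markers was 194 in vehicle and 301 in TAMo. A marker without a called peak entered as 0, so markers with a TAMo peak only add to the TAMo sum alone. Cd14 had 141 and 411 reads (1.24, 0.96 to 1.53) and Spi1 had 25 and 57 (0.89, 0.18 to 1.63). Csf1r, Itgam, Adgre1 and Fcgr3 had a promoter peak in TAMo only, whereas Lyz2 and Ly6c2 had none in either library. Cd68 (0.07) and Cebpa (0.11) had intervals that spanned 0. Among B cell genes, Ms4a1 had 26 and 65 reads (1.02, 0.34 to 1.74), Cd79b had 45 and 49 (−0.18, −0.79 to 0.44), Pax5 had a peak in TAMo only, and Cd79a had none. The part of such cells in the Ccnd1 result was not tested. In an ATAC-seq library of a cell mixture, more cells of a type and more cuts per cell cannot be told apart.

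Ccnd2 (ENSMUSG00000000184) lies on the minus strand of chromosome 6 at 127125162 to 127152193, with 3 start sites within a short stretch. The first of these, at 127151060, is inside the annotated gene. Distances upstream are counted from it, so a region called upstream can lie within the gene. The region at the start sites (127150927 to 127151271), with its summit in the 5′ UTR 30 bp after the first start site, had 579 reads in vehicle and 708 in TAMo. The levels were 123 and 122, a log2 ratio of −0.01 (−0.17 to 0.15). The start site of Ccnd2 was thus about equally open in the libraries. The strongest peak that reached the promoter window was another one, in an intron with its summit 1349 bp after the first start site (127149547 to 127150063), and it had 544 and 950 reads (0.50, 0.35 to 0.66). The third promoter region, 813 bp upstream, had 472 and 638 reads (0.13, −0.04 to 0.31). The higher TAMo value for the Ccnd2 promoter therefore came from the intronic peak and not from the start site.

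Upstream of Ccnd2, regions lay across the introns of 9330179D12Rik, an annotated antisense transcript, and beyond it between genes. Among the 67 member regions with a ratio, the largest was at 77536 bp upstream (127228361 to 127228773), with 33 reads in vehicle and 262 in TAMo (2.69, 2.16 to 3.26). Inside the antisense gene, the region 27104 bp upstream had 84 and 263 reads (1.34, 0.98 to 1.72). Another, 11999 bp upstream, had 222 and 567 reads (1.05, 0.82 to 1.28). Between these higher sites lay the single member region at least 2-fold lower in TAMo, 68553 bp upstream (127219274 to 127219768), with 230 and 134 reads (−1.08, −1.40 to −0.77). The upstream flank of Ccnd2 therefore held differences in both directions.

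Some of the most open Ccnd2 regions lay farthest upstream. At 89193 bp upstream (127239674 to 127241158) there were 870 and 913 reads (−0.23, −0.37 to −0.10), and at 94904 bp (127245716 to 127246317) 833 and 776 reads (−0.40, −0.55 to −0.26). Both were slightly lower in TAMo after scaling. Between them, the region at 92170 bp was less open and higher in TAMo, with 268 and 537 reads (0.70, 0.49 to 0.92). Nearby, 85657 bp upstream (127236415 to 127236978), a TAMo-only peak had 776 reads and a level of 134, rank 14324 of its list. The nearest vehicle peak was 2695 bp away, with a local background of 86.8 reads. At similar backgrounds the weakest of 1847 vehicle peaks had 121 reads. Of the other one-library regions of Ccnd2, 7 were TAMo-only and the 1 vehicle-only region, 4924 bp upstream, had 224 reads and lay 68 bp from a TAMo peak. Within the gene, the lowest ratio was in an intron 7664 bp after the start site, with 106 and 90 reads (−0.54, −0.96 to −0.12). The median over the 22 shared regions was 0.21.

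Ccnd3 (ENSMUSG00000034165) lies on the plus strand of chromosome 17 at 47505051 to 47599691 and has 6 annotated start sites, 4 at its 5′ end and 2 internal. The region at the 5′ end (47504842 to 47505595) had 448 reads in vehicle and 659 in TAMo (0.25, 0.08 to 0.43). Its window, printed above, holds the pair of GC boxes. The strongest promoter peak was at the internal start site at 47593470 (47593237 to 47593864), with 620 and 720 reads (−0.09, −0.24 to 0.07). The region at the other internal start site (47595519 to 47596121) was lower in TAMo, with 329 and 216 reads (−0.91, −1.16 to −0.66), although its summits lay 338 bp apart. An intronic region close to it (47597998 to 47598604) had 408 and 253 reads (−0.99, −1.22 to −0.76). Both lower regions, in the last part of Ccnd3, were just short of 2-fold. A region past the end of the gene (47600914 to 47601257) was higher in TAMo, with 150 and 255 reads (0.46, 0.17 to 0.76). The ratio of the 5′ region is smaller than the median of all shared regions, 0.28, so its direction depends on the scaling.

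Most of the other Ccnd3 regions were in its long introns. The strongest, 10572 bp after the first start site (47515220 to 47516201), had 921 and 1141 reads and was equal after scaling (0.01, −0.12 to 0.13). The only Ccnd3 region that passed 2-fold was 49715 bp after the start site (47554321 to 47555004), with 95 and 484 reads (2.05, 1.73 to 2.38). A region 26491 bp after the start site had 384 and 779 reads (0.72, 0.54 to 0.90), and one 18563 bp after it had 81 and 149 reads (0.58, 0.18 to 0.99). The region at 3071 bp was slightly lower in TAMo, with 616 and 663 reads (−0.20, −0.36 to −0.04). The median over the 19 shared regions was 0.18. The TAMo list held 32 Ccnd3 peaks and the vehicle list 21, and of the one-library regions 9 were TAMo-only (21 to 327 reads) and 2 vehicle-only (30 and 90 reads). Over the genome, 40.6% of TAMo regions and 13.3% of vehicle regions had no peak in the other list. Of the 9 TAMo-only regions, 5 lay 40 to 298 bp from a vehicle peak, so they are not separate from sites called in vehicle.

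Cdk4 (ENSMUSG00000006728) lies on the plus strand of chromosome 10 at 127063534 to 127067920, between March9 and Tspan31, whose start sites are 3350 and 6661 bp away. These close neighbours left Cdk4 a stretch of 5.07 kb and a single region, which covers the start site and the whole E-box window (127063100 to 127064032). It had 935 reads in vehicle and 1044 in TAMo, levels of 199 and 180, the highest promoter levels of the 5 genes in both libraries. They stood at percentiles 93.7 and 88.7 of all promoters. The log2 ratio was −0.14 (−0.27 to −0.01). The promoters of both neighbours were lower too, at March9 (220 and 218 reads, −0.32, −0.59 to −0.04) and at Tspan31 (441 and 437 reads, −0.32, −0.51 to −0.12).

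Cdk6 (ENSMUSG00000040274) lies on the plus strand of chromosome 5 at 3341485 to 3531008. The first start site used, at 3343893, is inside the annotated gene, so here too a region called upstream can lie within the gene. The start-site region (3343535 to 3344871), with the summit in a coding exon, had 464 reads in vehicle and 526 in TAMo (−0.12, −0.30 to 0.06). The levels of 98.6 and 90.6 were near the median promoter, at percentiles 54.2 and 49.6. The promoter regions just upstream were somewhat lower in TAMo, with 161 and 150 reads at 792 bp (−0.40, −0.74 to −0.07) and 198 and 176 reads at 1049 bp (−0.47, −0.77 to −0.17). The kinase promoters thus both had ratios slightly below 0.

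The most open Cdk6 regions were distal. The region 42604 bp upstream (3300758 to 3301510) had 959 and 1117 reads (−0.08, −0.21 to 0.04), ranks 352 and 991 of the lists. The intronic region 12156 bp after the start site (3355545 to 3356522) had 796 and 1075 reads (0.13, −0.00 to 0.27). Farther into the gene, 19350 bp after the start site (3362874 to 3363857), coverage differed widely, with 148 reads in vehicle and 642 in TAMo (1.81, 1.55 to 2.08). Weaker intronic regions at 62944 bp (24 and 88 reads, 1.57, 0.91 to 2.29) and 77118 bp (32 and 84 reads, 1.09, 0.49 to 1.73) also passed 2-fold. Lower ratios were found at 43903 bp upstream (257 and 210 reads, −0.59, −0.86 to −0.33) and at 38586 bp after the start site (136 and 115 reads, −0.54, −0.92 to −0.18). At 90908 bp the interval spanned 0 (30 and 25 reads, −0.57, −1.39 to 0.25). One further shared region (3383511 to 3383920) had 48 reads in vehicle and, in the authors' TAMo list, a fold of 10.7 and a −log10 q of 350. No whole coverage gave both TAMo values, so it has no ratio. It is left out of every ranking and count by ratio, although its rank was 82136 in the vehicle list and 16829 in the TAMo list. Cdk6 had the lowest locus median of the 4 genes with several shared regions, −0.15 over 16, with 8 TAMo-only and 5 vehicle-only regions, all weak (19 to 117 reads in vehicle and 18 to 66 in TAMo). With the TAMo list shortened, Cdk6 had fewer TAMo than vehicle peaks, 18 against 24, where the full lists gave 27 against 24.

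**Figure D3:**
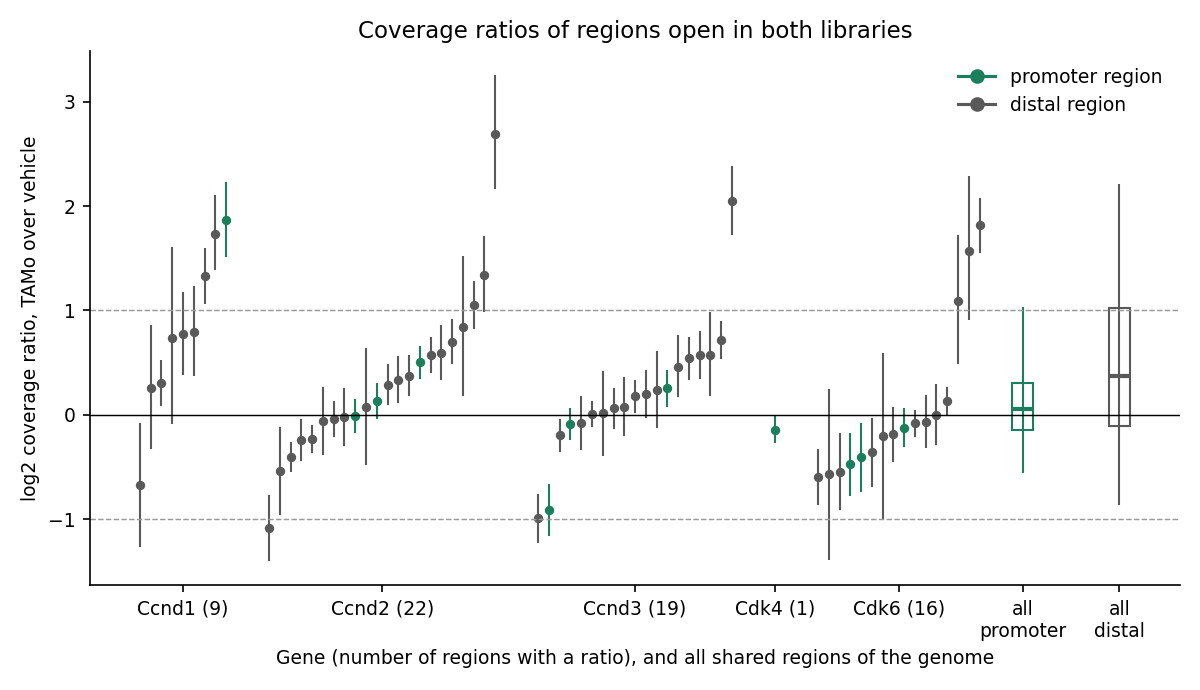
Log2 coverage ratio (vertical axis) of each of the 67 member regions with a ratio, sorted within each gene, with 95% counting intervals as bars, promoter regions in green and distal regions in grey; at the right, boxes give the quartiles and median and whiskers the 5th to 95th percentile of all shared regions. Dashed lines mark 2-fold, which 10 regions passed upward and 1 downward.

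The counts over all members are set beside those of the genome, as a description without a test. Of 56 distal member regions with a ratio, 9 (16.1%) were at least 2-fold higher in TAMo, where 25.6% of all shared distal regions were, and 1 (1.79%) was at least 2-fold lower, where 3.68% were. Of 11 promoter regions, 1 was higher, where 5.35% of all shared promoter regions were, and 0 were lower, where 0.967% were. The counting interval lay above 0 at 28 of the 67 regions (41.8%, genome 43.9%) and below 0 at 15 (22.4%, genome 13.7%). Their medians were 0.19 at distal and −0.09 at promoter regions, beside 0.38 and 0.05 for the genome. At Ccnd1, 2 of 8 distal regions were at least 2-fold higher, near the genome share of 25.6%, and their median of 0.76 lay within the distal quartiles of the genome (−0.11 and 1.02). Its remaining shared region is the promoter, whose ratio was known when the genes were chosen.

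One-library regions made up 34.6% of TAMo member regions (36) and 10.5% of vehicle member regions (8). Over the genome, 40.6% of TAMo regions and 13.3% of vehicle regions had no peak in the other list. Among the 50000 strongest peaks, 5.41% of TAMo and 1.07% of vehicle peaks overlapped none in the other list. Of the members, 2 TAMo and 0 vehicle peaks were of this kind, those upstream of Ccnd1 and Ccnd2 described above. The number of member peaks among the 50000 strongest is not given here, so these 2 are not read as more or fewer than the genome share. At the 100 kb limit, the farthest regions inside it were those at 94904 bp for Ccnd2, 90902 bp for Ccnd1 (69 and 148 reads) and 90489 bp from the nearest start site for Cdk6. Just outside were weak one-library peaks, at 101212 bp for Ccnd2 (37 TAMo reads), 111442 bp for Ccnd1 (44 TAMo reads) and 112293 bp for Cdk6 (17 vehicle reads).

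The other genes of the G1 to S phase step were read from 8 lists with 46 genes, all with a promoter peak in both libraries. None was at least 2-fold higher or lower, where 4.22% and 0.817% of all gene promoters were. Their median ratio was −0.03, beside 0.04 for all genes. The interval lay above 0 for 4 of them, where 27.0% of all promoters had one, and below 0 for 14, where 17.7% did. An interval is narrower at higher coverage, so these counts depend on coverage as well as on the ratio. The median vehicle level was 90.7 for all genes and was higher in every list but the pocket proteins (59.7). For Cdkn1a and Myc the strongest peaks of the libraries did not overlap, so they compare different sites; both enter the counts and the median, and their single values are not printed.

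Among the CDK inhibitors, 1 of 7 had an interval below 0 and none above. This was Cdkn1c, which encodes p57 (190 and 179 reads, −0.39). The INK4 genes, whose products bind CDK4 and CDK6 directly, differed little, at Cdkn2a (−0.01), Cdkn2b (−0.14), Cdkn2c (0.07) and Cdkn2d (0.10). Of the pocket proteins, the substrates of the cyclin D kinases, Rb1 was higher in TAMo (261 and 472 reads, 0.55, 0.33 to 0.78), Rbl1 was lower (−0.24) and the interval of Rbl2 spanned 0 (0.14). In the E2F and DP list, 5 of 10 had an interval below 0 and 1 above. The largest absolute values were at Tfdp1, the DP1 partner of E2F factors (503 and 348 reads, −0.83, −1.04 to −0.63), E2f2 (195 and 164 reads, −0.55), E2f8 (−0.33) and E2f6, whose value was above 0 with an interval that spanned it (0.25).

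Genes that act after the D cyclins were in 2 lists, and the same 17.7% of all promoters is the background for intervals below 0. In the cyclin E, cyclin A and CDK2 list, 2 of 5 had an interval below 0 and none above. These were Cdk2 (489 and 396 reads, −0.61, −0.80 to −0.41) and Ccne2 (844 and 826 reads, −0.33). The phosphatase gene Cdc25a (−0.09) and Ccne1 (−0.03) had intervals that spanned 0. Of the mitotic genes 3 of 4 lay below 0, at Ccnb2 (−0.45), Cdk1 (−0.27) and Ccnb1 (−0.23), and Ccnf lay above (0.15). None of the 3 genes of the CDK-activating kinase, which phosphorylates CDK4 and CDK6, had an interval beyond 0 (Mnat1 0.25, Cdk7 −0.06 and Ccnh 0.01). In the upstream regulators, which include activators of the D cyclin genes, 1 of 10 lay above and 1 below, with the largest values at Stat5a (0.17), Ctnnb1 (−0.16), Fos (−0.14) and Rela (0.13). Among 4 genes of cyclin D turnover, Fbxo31, the substrate receptor of a ubiquitin ligase, was lower (855 and 706 reads, −0.58, −0.72 to −0.43), and the intervals of Ambra1 (0.14), Ddb1 (−0.09) and Gsk3b (0.07) spanned 0.

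**Figure D4:**
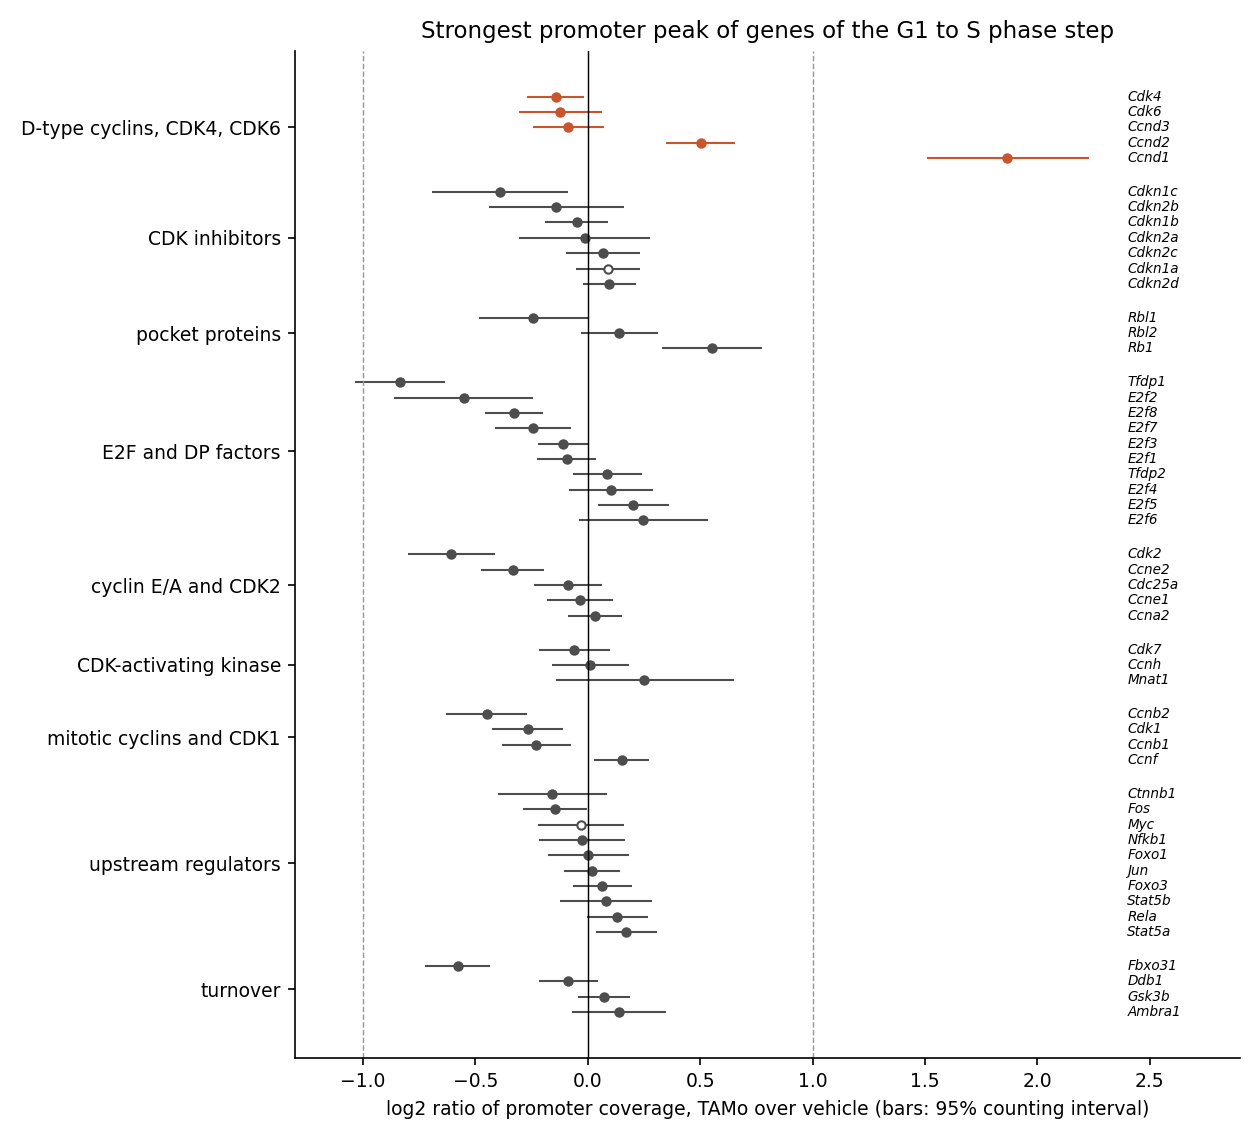
Log2 ratio of the strongest promoter peak (horizontal axis, bars for the 95% counting interval) for the members in orange and the pathway genes in grey, grouped by list, with names at the right; open points mark Cdkn1a and Myc, whose peaks did not overlap between libraries. Ccnd1 lies past the dashed 2-fold line and no gene of the pathway lists does; the Ccnd2 value of 0.50 is that of its intronic peak.

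The promoters of the protein-coding genes next to the members, apart from those of Cdk4 given above, were compared in the same way. Beside Ccnd1, LTO1 had 656 and 937 reads (0.21, 0.07 to 0.36), so the nearest promoter did not share the size of the Ccnd1 difference, and 1810010D01Rik on the other side, 268211 bp away, had no ratio. The values were −0.12 at Tigar and 0.11 at Parp11 beside Ccnd2. They were 0.05 at Taf8 and 0.00 at Bysl beside Ccnd3, and −0.16 at Fam133b beside Cdk6. By distance between the log2 promoter levels in the 2 libraries, the genes most like Ccnd1 were Wnt9a (80 and 342 reads) and Ddit4l (84 and 357). Those most like Ccnd2 were Ero1l and Atg10, for Ccnd3 Casp9 and Chac2, for Cdk4 Myo9b and Haus8, and for Cdk6 Dars and Txndc5. The level used was that of the strongest promoter peak, for Ccnd2 its intronic peak and for Ccnd3 the peak at an internal start site. Only 2 libraries enter this likeness.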

How the data were processed

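Per the labels' protocols, a Vazyme TruePrep kit was used and 150 bp pairs were read on an Illumina HiSeq X instrument. Trimmomatic 0.36, Bowtie2, MACS2 and mm10 are named in the submitters' processing notes; their settings, and whether reads were shifted or duplicates removed, is not given in the sources used here. Peak lists were deposited by the authors, 1 per library, each called separately. Each deposited row gives a score, a fold enrichment (a ratio over local background), a −log10 p, a −log10 q and a summit position. The authors' −log10 q served only for ranks and thresholds inside 1 list.

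Rows with the same interval (163215 vehicle and 225656 TAMo rows) were counted as 1 peak. Coverage was solved from the fold, (coverage + 1)/(background + 1), and the Poisson −log10 p; solutions were kept where whole reads matched within 1% of the step between neighbouring coverages, which left out 30 vehicle and 41 TAMo rows. This recovery was tested on data simulated with the same formula, which checks the solving step and not whether the deposited values follow the formula. The most frequent background stood for depth, and summits had a median of 70 reads in vehicle and 83 in TAMo. PCR duplicates may remain, so reads are not independent molecules and intervals (95%, exact binomial) cover counting error only. Overlap meant at least 1 bp. Where a region or promoter held several peaks, the highest coverage of a region and the peak with the highest −log10 q of a promoter were taken. Start sites came from GENCODE M21 basic annotation. With 1 library per group, a call meant at least 2-fold.

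The members and lists were chosen with earlier results of these data known. Text names all members, their promoter regions, one-library peaks among the 50000 strongest, the 3 highest and 3 lowest shared regions, up to 4 genes per pathway list with the largest absolute ratio, neighbours, and the 2 genes closest in promoter level; other regions and genes named were chosen after their values were seen. Alternatives covered scaling, promoter window, peak threshold, list length, overlap, fold and assignment; 2 more, the region at the first start site and summits within 50 bp, were added after seeing the data. Analyses used Python 3.11.15, numpy 2.4.6, pandas 2.3.3, scipy 1.17.1 and numba 0.67.0.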

Additional observations from a re-analysis of the deposited data

How the results depend on the processing

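Of the alternative values, 43 moved by less than the counting interval or the spread between regions, or by less than 1.5 times for a count, and the others moved more; several values near 0 changed sign. With the region at the first start site, added after seeing the data, Ccnd2 turned from 0.50 to −0.012 and Ccnd3 from −0.09 to 0.25. A 2.5 kb promoter window gave Ccnd1 0.30, because the intronic peak then became its strongest. Summing promoter peaks gave 2.28 for Ccnd1, 0.22 for Ccnd2 and 0.29 for Ccnd3. Setting the median of all shared regions to 0 lowered every log2 ratio by 0.28: the promoters of Ccnd2, Ccnd3, Cdk4 and Cdk6 came to 0.23, −0.36, −0.42 and −0.40, the single Cdk4 region to −0.42, and the locus medians of Ccnd2 and Ccnd3 to −0.06 and −0.10, below 0. Member regions at least 2-fold lower then numbered 3 and pathway promoters 1. A 1.5-fold call gave 17 higher and 5 lower regions and 2 lower pathway promoters. Vehicle-only regions numbered 2 with −log10 q of 10 or more. With the TAMo list shortened to the vehicle length, TAMo-only regions numbered 23 and vehicle-only regions 14. Weak regions, from 18 reads, are limited by depth. No replicate could be left out, and no paired analysis was possible because each group has 1 library.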
